A study of Rattus norvegicus with 18 samples.

Results

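The comparison of an ACPC-NP scaffold with a plain PCL scaffold at week 6 of bone repair rests on 6 of the 18 libraries of the study, 3 a side. The libraries were chosen by scaffold and week as the labels give them, so no expression value entered the choice. PCL is polycaprolactone, a slowly degrading polyester, and both groups had a 3D-printed scaffold of it in a critical-sized defect of the radius, a bone of the forearm. In the ACPC-NP group the polymer also held nanoparticles of amorphous calcium phosphate and chitosan, a sugar polymer made from chitin. Another scaffold at the same week held calcium phosphate microparticles in PCL (CaP), and its 3 libraries are given beside the results where they help. All animals were rats of the label WT, and the labels used here name no strain, age or sex.

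Bulk mRNA was sequenced from cells freed from marrow and bone within 1 mm of either end of the scaffold. Marrow went through red blood cell lysis and an enzyme digest, bone was minced and digested with collagenase, and the cells of both were pooled. The labels do not say whether libraries came from separate animals, so p-values measure the spread between these libraries, which may be technical in part. In bulk RNA, fewer cells of a type and less RNA per cell cannot be told apart.

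Marrow beside a healing defect makes red cells, granulocytes and lymphocytes, while the bone itself holds osteoblasts, which lay down and mineralise matrix, and osteoclasts, which resorb it. Red-cell precursors answer to erythropoietin and to the transcription factors Gata1, Klf1 and Tal1, and fill with globin and haem. NF-kB is a family of transcription factors held back by inhibitor proteins; when those are destroyed, the factors switch on cytokine and chemokine genes, and also the genes of their own inhibitors.

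The labelled tissue carried its defining markers. Values are CPM, read counts scaled to the size of each library after TMM normalisation, unless said otherwise. Col1a1, the main collagen chain of bone, ranged from 4373 to 9855 CPM over the 6 libraries, Bglap (osteocalcin) from 112 to 287, and the marrow granulocyte enzyme Mpo from 590.0 to 2344. Some defining genes were listed at 0 or near it in all 6 libraries: Gata1, Tnfsf11 (the osteoclast factor RANKL), Tnf and Il7r at 0 counts, and Col1a2, partner of Col1a1 in type I collagen, at 0.0427, 0.0451 and 0.052 CPM around ACPC-NP and 0.122, 0.119 and 0.127 around PCL. Such zeros belong to the table as deposited and were not read as absence of the transcript.

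Total counts of the 6 libraries ran from 18880604 to 25243753. No gene of 11814 passed an adjusted p under 0.05 by edgeR; the smallest adjusted p was 0.0783, and 2588 genes had an unadjusted p under 0.05, 1091 higher around ACPC-NP (9.23% of those tested) and 1497 lower (12.7%). DESeq2 called 880 genes and voom with quality weights 4056, and edgeR on the 9 libraries of week 6 alone called 487, 206 higher (1.78%) and 281 lower (2.43%). The CPM ranges of the 3 and 3 libraries did not overlap for 3185 genes, 27.0%, of which 1507 lay higher (12.8%) and 1678 lower (14.2%). The median difference over all tested genes was -0.0068 on the log2 scale. Differences are ACPC-NP minus PCL in log2 units ± standard error, and no direction below passed the adjusted threshold unless the week 6 fit is named.

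2 libraries stood apart within their groups. Along the first principal component of the week 6 libraries, which held 32.5% of the variance, ACPC-NP replicate 3 lay at -33.0 and replicates 1 and 2 at 40.0 and 38.8. Along the second, which held 22.9%, PCL replicate 1 lay at -19.5 and its group's other 2 at 24.4 and 37.3. Without PCL replicate 1, edgeR called 1787 genes, 688 higher and 1099 lower; leaving out any other of the 6 called 0. For most lists the median is followed by its lowest and highest value with 1 of the 6 libraries left out, and the library left out for each. Genes named beyond the 2 first-listed and the smallest-p member of each list were chosen after their values were seen.

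Genes of red-cell formation stood higher around ACPC-NP than around PCL alone, with ranges apart for nearly every member. Of 20 listed erythroid genes 17 were tested; 16 lay above 0, 14 had an unadjusted p under 0.05, all higher (9.23% of all tested genes), and 15 had CPM ranges that did not overlap, called ranges apart below, all higher (12.8% of all tested genes). The median difference was 0.74 and stayed between 0.57 and 0.81 when each of the 6 libraries was left out. The count with an unadjusted p under 0.05 was less steady: 3 without PCL replicate 2, 6 without ACPC-NP replicate 2 and 12 to 15 without any other. In the fit of the week 6 libraries alone 6 members were called, against 1.78% of all genes on the higher side: Rhag, Epor, Trim10, Klf1, Ahsp and Tmod1, at adjusted p-values by edgeR from 0.018 to 0.0495. The summed level of the list was 63641 to 85361 CPM over the ACPC-NP libraries and 30062 to 47977 over the PCL libraries.

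Hbb, a beta chain of adult haemoglobin, stood at 47756, 59101 and 43702 CPM in the ACPC-NP libraries and at 30485, 19143 and 31699 in the PCL libraries. The lowest ACPC-NP library thus lay above the highest PCL library, and the difference was 0.89 ± 0.29 (unadjusted p = 0.00868, adjusted p = 0.113 by edgeR). Hbb took 4.54, 5.66 and 4.45% of all counts around ACPC-NP and 2.96, 2.13 and 3.26% around PCL. Its close copy Hbb-b1 differed by 0.81 ± 0.23; the 2 genes are nearly alike in sequence, so how their reads were split is uncertain. Hba2, an alpha chain, was listed at only 1.62, 2.21 and 1.51 CPM around ACPC-NP and 12.3, 0.554 and 0.891 around PCL, with overlapping ranges. Red blood cell lysis was part of the preparation of all libraries, and its part in the level of these genes was not tested.

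The membrane and cytoskeleton of the red cell followed the globins. Slc4a1, the band 3 anion exchanger, measured 6089.7, 7059.9 and 5427 CPM around ACPC-NP and 3905, 2866 and 4228 around PCL, a difference of 0.76 ± 0.26. Sptb, the beta chain of spectrin, measured 1237, 1879 and 1142 against 976, 684 and 891 CPM, with replicate 2 highest around ACPC-NP and lowest around PCL. Rhag, of the Rh complex, had the largest difference of the erythroid list on the higher side, 0.91 ± 0.36. Ank1, Epb42 and Tmod1, which tie the spectrin skeleton to the membrane or cap its actin, lay 0.63 to 0.72 higher, all with ranges apart.

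Regulators of the lineage were on the same side. Klf1, a zinc finger factor that drives globin and membrane genes, stood at 302, 296 and 269 CPM against 197, 158 and 214, and Epor, the erythropoietin receptor, at 64.7, 76.1 and 63.5 against 43.2, 37.2 and 42. The PCL values of Epor lay within 37.2 to 43.2 CPM and the lowest ACPC-NP value was 63.5; its adjusted p was 0.14 by edgeR, and 0.022 in the week 6 fit. Ahsp, the chaperone of free alpha globin, differed by 0.77 ± 0.27. Tfrc, the transferrin receptor that brings iron into these and all dividing cells, differed by only 0.20 ± 0.13 and its ranges overlapped.

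Haem is built in 8 enzyme steps, from Alas2 in the mitochondrion to Fech, which inserts the iron. This list was chosen after values were seen. All 8 genes had ranges apart and an unadjusted p under 0.05, all higher, with a median of 0.75 that stayed between 0.65 and 0.85 when each library was left out; 6 of the 8 passed in the week 6 fit (1.78% of all genes). Without PCL replicate 2 the count with an unadjusted p under 0.05 was 5, and without ACPC-NP replicate 2 it was 7. Alas2 measured 3114, 3852 and 2741 CPM around ACPC-NP and 2257, 1436 and 2126 around PCL, and Fech 1046, 1109 and 856 against 620.3, 434 and 618. The differences of the 8 ran from 0.62 for Ppox to 0.91 for Alad. Alas2 and Urod were the 2 not called in the week 6 fit. Alas2 is also a member of the erythroid list.

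**Figure D1:**
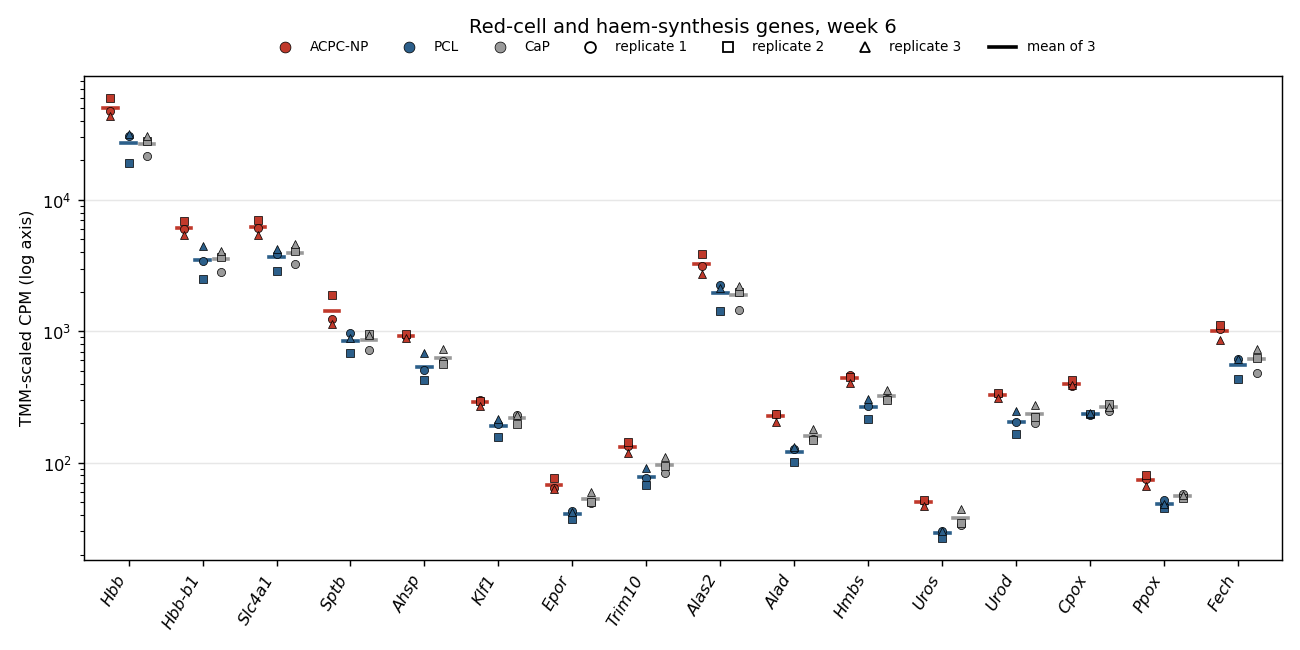
TMM-scaled CPM (log axis) of 8 red-cell genes and the 8 haem-synthesis genes in each week 6 library; colours mark the scaffold, symbols the replicate number and bars the mean of 3. For every gene plotted the 3 ACPC-NP libraries lie above the 3 PCL libraries, and the median of CaP minus PCL is 0.13 for the erythroid list; levels of different genes are not scaled for length.

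Around the CaP scaffold the same genes lay nearer to PCL than to ACPC-NP by their medians. The median of CaP minus PCL at week 6 was 0.13 over the erythroid list and 0.20 over haem synthesis, while ACPC-NP minus CaP was 0.54 and 0.49. These comparisons share libraries with the main one. Hbb in the CaP libraries was 21551, 27973 and 30604 CPM, which overlaps the PCL range and not the ACPC-NP range.

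The promoters of these genes are shown because the genes stood higher together and because GATA factors and Klf1 are known to bind in erythroid promoters. Each window is the 250 bases before the gene's start, from RefSeq on build GRCr8, 5′ to 3′ on the gene's strand. Capitals mark the letters GATAA, or their reverse complement TTATC, in the first 3, and CCACACCC, the CACC box read by Klf1, in the last.
Alas2 (chrX:22895200-22895449, plus strand): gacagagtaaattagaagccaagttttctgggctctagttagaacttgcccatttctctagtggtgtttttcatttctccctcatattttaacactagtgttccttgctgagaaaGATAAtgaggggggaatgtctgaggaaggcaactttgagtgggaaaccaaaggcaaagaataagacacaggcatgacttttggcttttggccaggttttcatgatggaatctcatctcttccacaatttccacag
Klf1 (chr19:40158652-40158901, minus strand): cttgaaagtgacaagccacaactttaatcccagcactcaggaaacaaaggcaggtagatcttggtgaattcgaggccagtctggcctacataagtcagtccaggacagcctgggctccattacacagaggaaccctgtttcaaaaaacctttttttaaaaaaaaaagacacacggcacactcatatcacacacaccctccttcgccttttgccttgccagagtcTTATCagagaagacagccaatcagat
Trim10 (chr20:1703470-1703719, minus strand): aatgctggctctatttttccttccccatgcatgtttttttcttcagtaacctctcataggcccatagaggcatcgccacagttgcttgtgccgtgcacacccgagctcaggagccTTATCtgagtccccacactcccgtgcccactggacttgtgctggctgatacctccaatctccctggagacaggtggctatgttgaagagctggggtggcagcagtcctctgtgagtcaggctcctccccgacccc
Hbb (chr1:167663722-167663971, minus strand): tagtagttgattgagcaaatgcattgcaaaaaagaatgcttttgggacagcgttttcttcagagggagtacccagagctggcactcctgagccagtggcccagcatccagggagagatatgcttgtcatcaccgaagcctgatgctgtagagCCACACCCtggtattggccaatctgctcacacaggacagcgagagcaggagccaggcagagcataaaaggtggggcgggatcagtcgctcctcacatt
GATAA began 135 bases before the start in Alas2, and TTATC 26 bases before it in Klf1 and 135 before it in Trim10, which encodes a ring-finger protein of maturing red cells. On both strands, GATAA was found in 7 of the 12 erythroid genes with a window, 58.3%, and in 1380 of 8956 tested genes with one, 15.4%. CCACACCC was found in 1 of the 12, Hbb, 98 bases before the start, and in 301 of the 8956, 3.36%. A match describes letters in a window and says nothing of binding there, and the list was chosen with earlier results known.

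Next to the erythroid list, other genes of early blood cells and of division lay higher. In the blood stem and progenitor list 10 of 12 tested genes were above 0, 4 with ranges apart (12.8% of all tested genes on that side). The median was 0.31 (0.26 without PCL replicate 3 to 0.53 without PCL replicate 1). Tal1, which with Gata1 drives red-cell genes, stood at 322, 376 and 277 CPM against 196, 160.4 and 177, and Lyl1, its close relative, at 188, 174 and 164 against 125, 112 and 108. Myc, which drives growth and division, was 0.65 higher, and Runx1, a factor of blood stem cells and lymphocytes, lay the other way at -0.45; both had ranges apart. All 9 tested megakaryocyte and platelet genes were above 0 (median 0.56, from 0.35 without PCL replicate 2 to 0.79 without PCL replicate 1). Ranges were apart for 2, Gfi1b and Gp1ba (12.8% of all tested genes on the higher side). Gfi1b is shared by megakaryocyte and red-cell precursors.

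Of 22 proliferation genes 19 were above 0, 1 had an unadjusted p under 0.05 on that side (9.23% of all tested genes), 8 had ranges apart (12.8%) and 5 passed in the week 6 fit (1.78%). The median was only 0.22 (0.14 without ACPC-NP replicate 1 to 0.31 without PCL replicate 2). The members apart were mainly of mitosis: Plk1, the polo-like kinase, stood at 116, 120.4 and 97 CPM against 67.4, 66.8 and 57.2, and Ccnb1, Ccnb2, Ccna2, Cdk1 and Aurka were 0.36 to 0.52 higher. Genes of DNA replication were not: Mcm2 to Mcm6 differed by -0.098 to 0.17, and Pcna by -0.29, all with overlapping ranges. Car1 and Car2, carbonic anhydrases of red cells (Car2 also of osteoclasts), stood at 519, 407 and 408 against 180.4, 144 and 214 CPM and at 1716, 1774 and 1445 against 951, 776 and 1004. In iron handling 10 of 11 genes were above 0 (median 0.20; 0.16 without PCL replicate 2 to 0.43 without PCL replicate 1), with ranges apart for Steap3, which reduces iron in red-cell endosomes (0.59 ± 0.18), the iron importer Slc11a2, and Cd163, the macrophage receptor for haemoglobin. Cd163 measured 94.4, 174 and 81.1 CPM around ACPC-NP and 72.2, 33.5 and 36.5 around PCL.

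**Figure D2:**
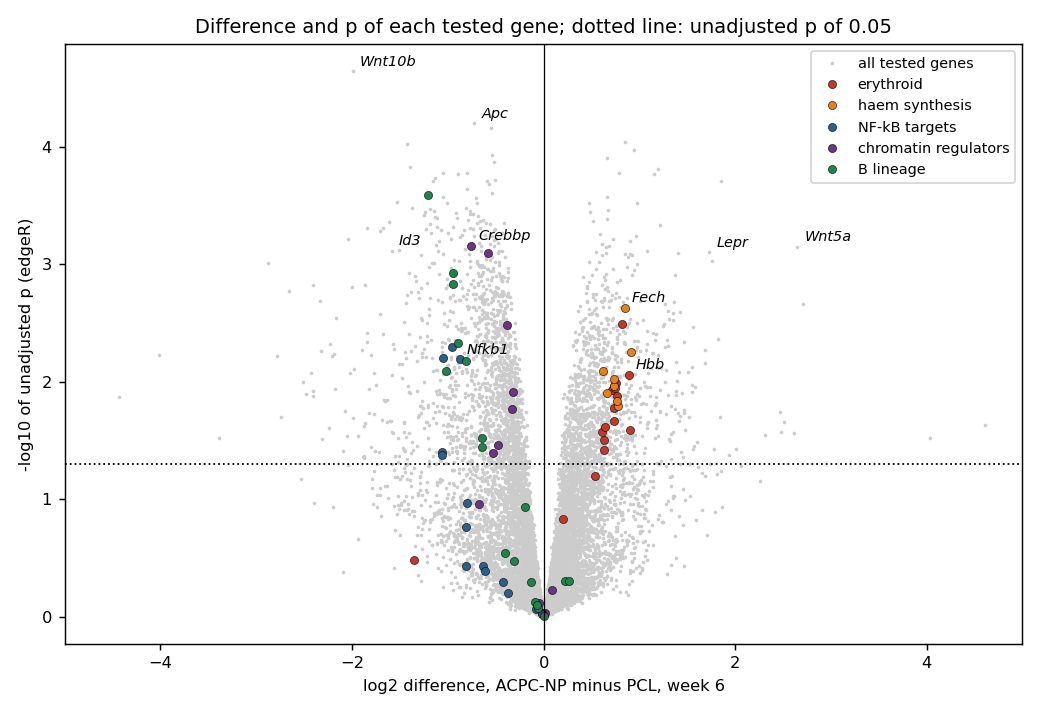
Each point is a tested gene: the log2 difference ACPC-NP minus PCL at week 6 (x) against -log10 of the unadjusted edgeR p (y), with members of 5 lists in colour. Nearly all erythroid and haem-synthesis genes sit together near 0.75 (Hba2, at -1.36, and Tfrc do not), and the 13 NF-kB targets all lie below 0.

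Targets of NF-kB lay lower around ACPC-NP, all 13 that were tested. Of 16 listed genes 13 were tested; 0 were above 0, 5 had an unadjusted p under 0.05 (12.7% of all tested genes on that side) and 8 had ranges apart (14.2%). In the week 6 fit 4 were called, Nfkb1, Nfkb2, Nfkbie and Birc3, against 2.43% of all genes. The median was -0.81, between -0.99 and -0.61 with each library left out; the count with an unadjusted p under 0.05 was 2 to 5, lowest without PCL replicate 3. Nfkb1, the p105 precursor of the p50 subunit, stood at 434, 330.2 and 375 CPM around ACPC-NP and 578, 673 and 840.0 around PCL, -0.88 ± 0.28 (adjusted p = 0.102 by edgeR). Nfkb2, which gives the p52 subunit, stood at 248, 161 and 215 against 358, 444 and 504. The highest ACPC-NP library lay below the lowest PCL library in both.

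The inhibitors and survival genes that NF-kB feeds back on were lower too. Nfkbie, which encodes the inhibitor IkB epsilon, measured 144, 103 and 133 CPM against 195, 277 and 314, and Birc3, an inhibitor of cell death, 154, 98.2 and 144 against 215, 277 and 336. Nfkbia, which encodes IkB alpha, measured 473, 291 and 394 against 732, 476 and 586; its ranges only just parted, and its difference of -0.63 ± 0.69 had an unadjusted p of 0.373. Cd83, a surface protein of activated dendritic and B cells, differed by -0.95 ± 0.29, and the adhesion molecule Icam1 by -0.81 ± 0.56. Tnip1, Traf1, Nfkbiz, Il1a and Il1b had overlapping ranges, with Tnip1 nearest to 0 at -0.081. Several of these genes are also abundant in B cells; the B lineage list summed to 1858 to 2269 CPM around ACPC-NP and 1968 to 4064 around PCL, and its part in the NF-kB difference was not tested.

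Of the NF-kB targets with a window, a kappaB motif (GGG, any 2 bases, then TTTCC, on both strands) occurred in the 250 bases before the start of 3 of 12, 25%, against 148 of 8956 tested genes, 1.65%. They are shown with the motif or its reverse complement in capitals, RefSeq on GRCr8. The motif began 20, 31 and 13 bases before the start. A match describes letters in a window and says nothing of binding there. The list was made of NF-kB targets and chosen with earlier results known, so its share of matches does not test the difference between the scaffolds.
Nfkb2 (chr1:255108124-255108373, plus strand): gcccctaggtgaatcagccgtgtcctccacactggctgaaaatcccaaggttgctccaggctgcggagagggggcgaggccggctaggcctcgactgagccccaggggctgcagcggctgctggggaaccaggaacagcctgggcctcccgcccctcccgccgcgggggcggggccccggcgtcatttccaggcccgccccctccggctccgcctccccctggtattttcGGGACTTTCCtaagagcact
Nfkbia (chr6:78597073-78597322, minus strand): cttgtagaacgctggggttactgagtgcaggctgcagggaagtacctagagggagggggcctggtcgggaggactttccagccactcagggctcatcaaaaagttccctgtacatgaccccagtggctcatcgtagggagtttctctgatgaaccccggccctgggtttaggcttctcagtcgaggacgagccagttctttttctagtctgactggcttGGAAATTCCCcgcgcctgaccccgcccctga
Nfkbiz (chr11:58251471-58251720, plus strand): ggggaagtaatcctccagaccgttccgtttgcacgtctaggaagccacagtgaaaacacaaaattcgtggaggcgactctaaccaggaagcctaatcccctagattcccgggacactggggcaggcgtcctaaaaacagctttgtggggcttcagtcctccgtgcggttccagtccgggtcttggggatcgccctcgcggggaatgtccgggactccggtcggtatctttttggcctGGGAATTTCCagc
Of these 3, Nfkb2 and Nfkbia had ranges apart and Nfkbiz, an atypical inhibitor, did not: 169, 101 and 112 CPM around ACPC-NP and 257, 163 and 165 around PCL.

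Immediate early genes, which cells switch on within minutes of a stimulus and also during enzymatic dissociation, leaned the same way. Of 23 tested, 1 was above 0, 3 had an unadjusted p under 0.05, close to the 12.7% of all tested genes, and 7 had ranges apart (14.2% of all tested genes). The median was -0.48 (-0.79 without ACPC-NP replicate 3 to -0.20 without PCL replicate 1). Without ACPC-NP replicate 2, or without PCL replicate 1, 0 had an unadjusted p under 0.05. The 3 were Nr4a2 (24.4, 15.4 and 26.8 CPM against 58.9, 37.4 and 38.1), Nr4a3 and Egr3, receptors and a zinc finger factor induced by signals at the cell surface. Fos and Jun, the core pair of AP-1, had overlapping ranges: Fos stood at 98.1, 74 and 263 CPM around ACPC-NP, with replicate 3 above every PCL library, and at 237, 155 and 126 around PCL.

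Chemokines shared the direction. Of 19 tested, 16 were below 0 and 6 had ranges apart, all lower (14.2% of all tested genes). The median was -0.71 (-1.09 without ACPC-NP replicate 3 to -0.41 without PCL replicate 1). Cxcl2, which draws neutrophils, stood at 218, 143 and 174 CPM around ACPC-NP and 502, 277 and 292 around PCL, where replicate 1 was the highest of all. Cxcl1, Ccl3, Ccl4, Ccl7 and Ccl22 were the other genes apart, at -1.46 to -0.75; their standard errors were 0.63 to 0.94 and none had an unadjusted p under 0.05. Ccl2, the monocyte attractant, measured 206, 91.9 and 139 CPM against 426, 206 and 243 with overlap. Ccl17, of dendritic cells, was the 1 member of 19 with an unadjusted p under 0.05, -0.78 ± 0.29, against 12.7% of all tested genes on the lower side. Cxcl1 was the 1 called in the week 6 fit (adjusted p = 0.0484 by edgeR).

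**Figure D3:**
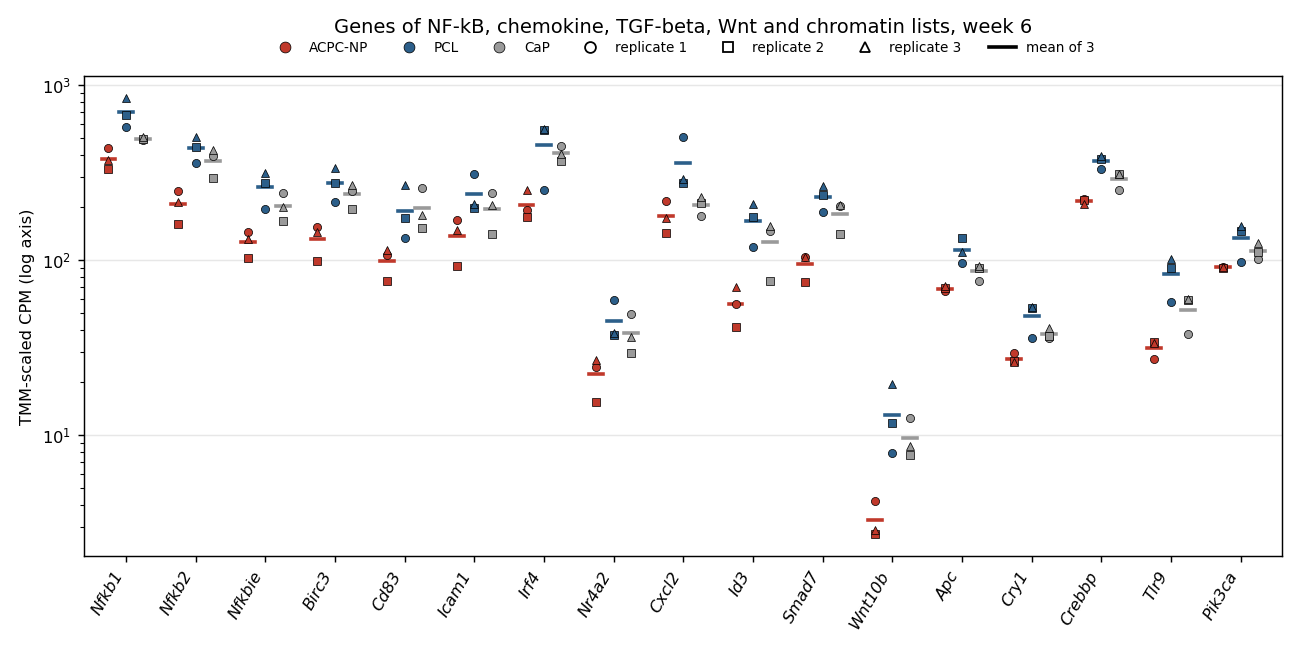
TMM-scaled CPM (log axis) in each week 6 library of 17 genes that lay lower around ACPC-NP; colours mark the scaffold, symbols the replicate and bars the mean of 3. All ACPC-NP libraries lie below all PCL libraries for each gene plotted, and PCL replicate 1 is often the nearest; levels of different genes are not scaled for length.

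B cell genes were lower around ACPC-NP than in 2 of the 3 PCL libraries. The median was -0.36 (-0.67 without PCL replicate 1 to -0.16 without PCL replicate 2). Of 18 tested, 15 were below 0 and 8 had an unadjusted p under 0.05, all lower (12.7% of all tested genes). Only 2 had ranges apart, against 14.2% of all tested genes on that side. Those 2 were Bach2, listed under its older symbol RGD1562865 (112, 142 and 146 CPM against 175, 384 and 359.7), a repressor that holds B cells back from plasma cell fate, and Foxo1, a factor of B cell development (73.1, 75.3 and 94.6 against 99.7, 173 and 196). Rag1, a subunit of the recombinase of antigen receptor genes, stood at 199, 266 and 292 CPM around ACPC-NP and 256, 599.8 and 682 around PCL, so PCL replicate 1 lay among the ACPC-NP libraries. Ebf1, Pax5, Blnk and Cd79b showed the same order of libraries: PCL replicates 2 and 3 highest, PCL replicate 1 inside or below the ACPC-NP range. The count with an unadjusted p under 0.05 was 4 to 10 with each library left out, highest without PCL replicate 1 and lowest without PCL replicate 3. Rag2, Igll1, Dntt and Vpreb1, further genes of early B cells, differed by -0.40 to 0.23 with overlapping ranges.

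Irf4, a factor of activated B and plasma cells, differed by -1.14 ± 0.28, with 194, 176 and 250.3 CPM around ACPC-NP and 251, 556 and 561 around PCL. The rest of the plasma cell list was mixed, with 4 of 7 above 0 and a median of 0.19 (0.10 without PCL replicate 2 to 0.37 without PCL replicate 1); Mzb1, a chaperone of antibody assembly, was the other gene apart (-0.36 ± 0.21). In the MHC class II list 6 of 7 were below 0 (median -0.41; -0.59 without PCL replicate 2 to -0.21 without PCL replicate 3): RT1-Db1, a beta chain, stood at 156, 136 and 191 CPM against 238, 216 and 338, while Ciita, the master activator of the class, lay higher at 21.1, 26.5 and 25.9 against 18.1, 15.9 and 15. Its paralogs are alike, so reads may be split among them.

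T cell genes were evenly spread, with 8 of 17 above 0 and a median of -0.037 (-0.18 without ACPC-NP replicate 3 to -0.0021 without ACPC-NP replicate 2). Cd6 and Cd8a, 2 of 17, lay higher with ranges apart, close to the 12.8% of all tested genes. Cd8a stood at 17.4, 16.8 and 19.3 CPM against 15.4, 11.1 and 12.4. Lef1 and Cd5, also 2 of 17, had an unadjusted p under 0.05 on the lower side, with overlap, close to the 12.7% of all tested genes. In the NK and cytotoxic list 9 of 13 were below 0 (median -0.19; -0.42 without ACPC-NP replicate 3 to -0.10 without PCL replicate 3): Gzma, a granule protease, stood at 1.03, 1.08 and 0.52 CPM against 2.25, 1.78 and 3.23, and Klrk1, the receptor NKG2D, at 21.3, 26.6 and 19.2 against 17.6, 13.7 and 10.2, the other way. Regulatory T and Th2 genes had 7 of 9 below 0 (median -0.39; -0.57 without ACPC-NP replicate 3 to -0.25 without PCL replicate 3); Foxp3, which defines regulatory T cells, was at 2.95, 2.26 and 3.07 CPM against 3.35, 3.76 and 4.5 and Il2ra, the interleukin 2 receptor alpha chain, at 1.03, 1.62 and 2.5 against 2.53, 3.36 and 3.91. These are low levels, and both had an unadjusted p above 0.05. Ranges were apart lower for 2 of 13 NK and cytotoxic genes and 2 of 9 regulatory T and Th2 genes (14.2% of all tested genes). On the higher side they were apart for 1 NK and cytotoxic gene and 0 regulatory T and Th2 genes (12.8%).

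Granulocyte genes were on the higher side, again with PCL replicate 1 beside ACPC-NP. In the neutrophil and granulocyte progenitor list 16 of 18 were above 0 with a median of 0.42 (0.18 without PCL replicate 2 to 0.90 without PCL replicate 1). With an unadjusted p under 0.05 on the higher side there were 3 (9.23% of all tested genes), 16 without PCL replicate 1 and 1 without PCL replicate 2. S100a8, a subunit of the antimicrobial protein calprotectin, stood at 9894, 9918 and 6786 CPM around ACPC-NP and 8946, 3738 and 5953 around PCL. Ranges were apart for only 1 of 18 on each side, against 12.8% of all tested genes higher and 14.2% lower. Lcn2, which starves microbes of iron by binding their siderophores, was the gene apart on the higher side: 1623, 1461 and 1107 CPM against 123, 391 and 792, a difference of 1.68 ± 0.52, and PCL replicate 1 was here the lowest. Gfi1, a repressor needed for neutrophil formation, was apart on the lower side at -0.22.

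Of 15 eosinophil and mast cell genes 12 were above 0 (median 0.37; 0.28 without ACPC-NP replicate 2 to 0.75 without PCL replicate 1). Alox15, a lipoxygenase of eosinophils and some macrophages, stood at 819, 1486 and 883 CPM against 400.2, 381 and 406, with an adjusted p of 0.0838 by edgeR and 0.0318 in the week 6 fit. Ccr3, the eotaxin receptor, was also apart at 1.05, and the granule proteins Prg2 and Epx were 0.93 and 0.81 higher with overlap. Alox15 and Ccr3 were the 2 of 15 apart, close to the 12.8% of all tested genes on the higher side. Mast cell tryptases lay the other way: Tpsb2 was at 4.06, 5.19 and 5.05 CPM around ACPC-NP, and at 4.33, 31.3 and 19.2 around PCL.

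Macrophage genes did not move as a block. In the monocyte and macrophage list 11 of 15 were above 0 (median 0.35; 0.16 without PCL replicate 2 to 0.62 without PCL replicate 1), with Cd163 and Mertk, a receptor for dying cells, apart on the higher side (1.30 ± 0.46 and 0.75 ± 0.31) and Vsig4 apart on the lower side at under 2 CPM. Csf1r, the receptor all macrophages need, differed by 0.36 ± 0.27. The M1-type list had 11 of 16 below 0 (median -0.20; -0.85 without ACPC-NP replicate 3 to -0.033 without ACPC-NP replicate 2): Ccr7, a homing receptor of dendritic cells and lymphocytes as well, stood at 38.8, 24.6 and 37.8 CPM against 56.8, 79.1 and 89, Irf5 was 0.48 higher, and Nos2 differed by 0.0068 ± 0.82. The M2-type list had 9 of 14 below 0 (median -0.12; -0.29 without PCL replicate 2 to -0.016 without PCL replicate 1); Mrc1 differed by -0.12 ± 0.39 and Arg1, at 4.4, 6.91 and 22.2 CPM against 6.16, 2.65 and 8.28, was highest in ACPC-NP replicate 3. Lysosome and phagocytosis genes had 14 of 20 above 0 (median 0.15; 0.0091 without PCL replicate 2 to 0.38 without PCL replicate 1); Cd36 and Npc2 were apart higher and Npc1, the cholesterol exporter of the lysosome, was among those apart lower. The 4 tested chitinase and chitin-like genes, of interest because chitosan is made from chitin, were all above 0 (median 0.35; 0.12 without PCL replicate 2 to 0.77 without PCL replicate 1) with 0 apart: Chit1, the macrophage chitinase, stood at 187, 193 and 143 CPM against 197, 88.7 and 107.

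Genes of innate sensing split in 2 directions. The median of the cytosolic DNA sensing and inflammasome list was -0.26 (-0.31 without ACPC-NP replicate 1 to -0.13 without PCL replicate 1). Of its 12 genes 5 had an unadjusted p under 0.05 on the lower side (12.7% of all tested genes) and 1 on the higher (9.23%). The count on the lower side was 1 to 5 with each library left out, lowest without PCL replicate 2 and highest without PCL replicate 1. Tlr9, the endosomal receptor of unmethylated DNA, stood at 27.1, 34 and 33.6 CPM around ACPC-NP and 57.9, 89.7 and 101 around PCL, -1.39 ± 0.28, and the kinase Tbk1 and its target Irf3 also had ranges apart below PCL. Pycard, the adaptor of the inflammasome, stood at 75.9, 84.5 and 75.2 against 58.3, 31.4 and 44.1, and Casp1, the protease it activates, was 0.35 higher. Interferon response genes had 12 of 22 above 0 (median 0.25; -0.13 without ACPC-NP replicate 2 to 0.43 without ACPC-NP replicate 3). Without PCL replicate 2 this median was also below 0, at -0.05. Rsad2, the antiviral protein viperin, had the largest difference of these at 1678, 1896 and 1308 CPM against 818, 468 and 842. Isg15, Mx1 and Ifit1 overlapped with differences of 0.33 ± 0.85, -0.05 ± 0.55 and 0.53 ± 0.72. An unadjusted p under 0.05 was found for 2 members on the higher side (9.23% of all tested genes) and 1 on the lower (12.7%). Gbp5 had the smallest p of the list (adjusted p = 0.095 by edgeR) and lay lower, at -1.24 to -0.50 with each library left out.

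**Figure D4:**
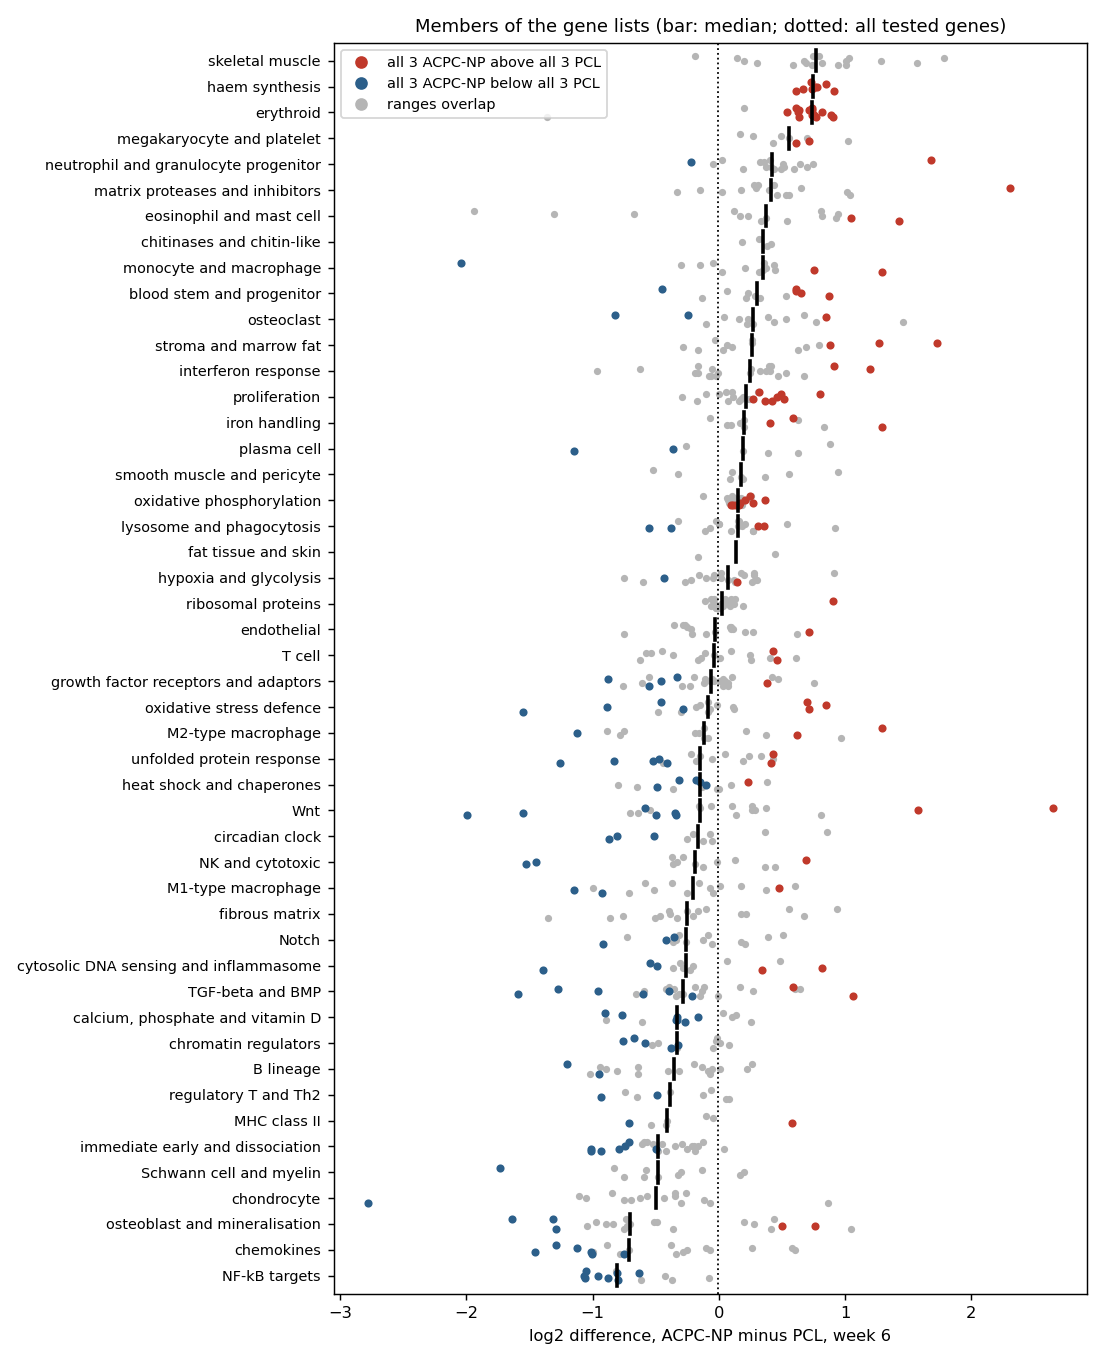
Log2 difference ACPC-NP minus PCL at week 6 of each tested member of the 48 lists, ordered by list median (bar); red and blue points have CPM ranges that do not overlap, grey points overlap, and the dotted line is the median of all tested genes. Erythroid and haem-synthesis points are nearly all red near 0.75, and the NF-kB list is the lowest at -0.81.

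Signalling genes downstream of TGF-beta and BMP, growth factors of bone, leaned lower. Id3, a BMP-induced inhibitor of helix-loop-helix factors, stood at 55.9, 41.2 and 70.4 CPM around ACPC-NP and 119, 176 and 208 around PCL, -1.59 ± 0.38 (adjusted p = 0.0783 by edgeR). Smad7, the feedback inhibitor of both pathways, stood at 105, 75.2 and 104 against 189, 234 and 264. Smad6, Smad3 and the receptor Tgfbr1 were also apart, at -0.96 to -0.39. The list median was -0.29 (-0.45 without ACPC-NP replicate 3 to -0.17 without ACPC-NP replicate 1). Over the list 19 of 25 genes were below 0 and 5 had an unadjusted p under 0.05, all lower (12.7% of all tested genes). With each library left out the count was 2 to 8, lowest without ACPC-NP replicate 2 and highest without ACPC-NP replicate 3. The ligands were less uniform: Tgfb1 differed by -0.19 ± 0.19, Bmp2 by -0.66 ± 0.66, and Tgfb2 and Bmp7 were apart on the higher side.

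Wnt10b, a Wnt ligand that favours bone over fat, had the smallest p of all genes: 4.23, 2.71 and 2.86 CPM around ACPC-NP and 7.92, 11.7 and 19.5 around PCL, -1.99 ± 0.33 (unadjusted p = 2.26e-05, adjusted p = 0.0783 by edgeR, 0.0289 in the week 6 fit). The ACPC-NP level was 3.98-fold lower. Wnt5a, a ligand that acts without beta-catenin, went the other way, 7.99, 16.5 and 4.63 CPM against 1.63, 0.713 and 2.29, and so did Sfrp4, a secreted Wnt binder, 11.7, 16.7 and 34.6 against 7.47, 8.23 and 5.31. Apc, a scaffold of the complex that destroys beta-catenin, had the next smallest p on the lower side: 66.6, 68.9 and 70.8 CPM against 95.9, 134 and 111. Ctnnb1, beta-catenin itself, was apart at -0.35 ± 0.16. Over the Wnt list 12 of 21 were below 0 (median -0.15, from -0.27 without ACPC-NP replicate 2 to 0.047 without ACPC-NP replicate 1). Ranges were apart lower for 6 (14.2% of all tested genes) and higher for 2 (12.8%). Axin2, the usual readout of the beta-catenin pathway, stood at 15.1, 15.6 and 16.7 CPM against 18.7, 18.7 and 22.5.

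In the Notch list 11 of 15 were below 0 (median -0.26; -0.98 without ACPC-NP replicate 3 to -0.013 without ACPC-NP replicate 2). Dll1, a ligand, Lfng, which modifies the receptor, and Maml1, its coactivator, were apart on the lower side; Nrarp, a target gene, stood at 38.8, 26.6 and 51.2 CPM against 50.3, 71 and 71.9. Growth factor receptors and adaptors had a median near 0 (-0.06, from -0.22 without ACPC-NP replicate 3 to -0.0045 without PCL replicate 1). An unadjusted p under 0.05 was found for 4 of 26 on the lower side, close to the 12.7% of all tested genes, and for 1 on the higher (9.23%). Among the 4 was Pik3ca, the catalytic subunit of PI3 kinase, at 91.3, 89.7 and 91.3 CPM against 97.4, 147 and 156. The insulin receptor Insr, at 32.9, 39.3 and 32.5 against 44.9, 47.2 and 51.6, and the insulin receptor substrate Irs1, at -0.88 ± 0.34, were others. Mapk3 was 0.38 higher.

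Of 26 chromatin regulators 13 were tested, and 7 had an unadjusted p under 0.05, all lower (12.7% of all tested genes). Ranges were apart for 5, all lower (14.2%), and the week 6 fit called 3 (2.43%), Crebbp, Chd1 and the demethylase Kdm6b. The median was -0.33 (-0.44 without PCL replicate 1 to -0.25 without PCL replicate 3). The count with an unadjusted p under 0.05 was 3 to 7 with each library left out, lowest without PCL replicate 2 or 3. Crebbp, a histone acetyltransferase and coactivator of many signalling factors, stood at 224, 221 and 208 CPM around ACPC-NP and 332, 380.1 and 394 around PCL. Chd1, a remodeller of active genes, stood at 283, 271 and 277 against 360.0, 467 and 419, and Setd2, which marks transcribed gene bodies, at 239, 253 and 222 against 290.4, 321 and 319.7. Dnmt3a, Dnmt1 and Hdac1 differed by -0.048, -0.013 and 0.011. The circadian clock list, chosen after values were seen, had a median of -0.16 (-0.29 without ACPC-NP replicate 3 to -0.11 without PCL replicate 1) and 3 genes apart below PCL, the repressors Per1, Cry1 (29.3, 26.4 and 26.2 CPM against 36, 53.2 and 53.7) and Nr1d2 (63.7, 46.8 and 61.6 against 94.1, 108 and 112), while Per3 was 0.86 ± 0.28, with overlap. The labels used here give no time of day of collection.

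Genes of bone formation leaned lower, none of the lower members with an unadjusted p under 0.05. Of 21 osteoblast and mineralisation genes 14 were below 0 and the median was -0.70, between -0.81 and -0.34 with each library left out. Bglap stood at 112, 132 and 173 CPM around ACPC-NP and 165, 287 and 226 around PCL, and Sp7, the osteoblast factor osterix, at 0.769, 2.35 and 1.46 against 1.96, 3.84 and 2.38; both overlapped. Runx2, which starts the osteoblast programme, was 0.20 ± 0.14, on the higher side. Ranges were apart for 3 of the 21 on the lower side, close to the 14.2% of all tested genes, and for 2 on the higher (12.8%). Phex and Mepe were among the 3 apart below PCL, Phex at 0.94, 1.9 and 2.19 CPM against 3.71, 5.66 and 2.84. Phospho1, a phosphatase that supplies phosphate for mineral and is also found in red cells, was apart above it, 164, 211 and 195 against 143, 92.9 and 101 (0.76 ± 0.20). Spp1 (osteopontin) was 0.44 ± 0.58.

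Osteoclast genes had 12 of 15 above 0 with a median of 0.27 (0.20 without ACPC-NP replicate 3 to 0.47 without ACPC-NP replicate 1). Acp5 and Ctsk, the phosphatase and protease that define the cell, overlapped: Ctsk stood at 45.5, 85.5 and 169 CPM around ACPC-NP and 100, 91.8 and 57 around PCL. Traf6, the adaptor of the RANK receptor, was apart below PCL at 35.1, 39.3 and 38.9 against 48.6, 75.1 and 76.2, and Car2, given above with the red-cell genes, was apart above it. In the calcium, phosphate and vitamin D list 7 of 13 were apart, all lower (14.2% of all tested genes), but 2 had an unadjusted p under 0.05 and 0 were called in the week 6 fit (median -0.33; -0.32 without PCL replicate 2 to -0.25 without PCL replicate 1). Camk2d, a calcium-dependent kinase, had the smallest p of the list at 58, 68.1 and 77.7 CPM against 79.6, 139 and 128. The pump Atp2a2, the phosphate importer Slc20a1, the exporter Xpr1 and the vitamin D receptor Vdr were -0.16 to -0.33.

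Cartilage genes depended on single libraries. Col2a1, the collagen of cartilage, stood at 11.8, 853 and 699.7 CPM around ACPC-NP and 57.6, 62.6 and 2195 around PCL, so each group held both low and high libraries, ACPC-NP replicate 1 and PCL replicates 1 and 2 being low. Of 16 chondrocyte genes 15 were below 0 with a median of -0.50 (-0.94 without PCL replicate 2 to 1.46 without PCL replicate 3). Matn1, a cartilage matrix protein at under 2 CPM, was the only member apart, 0.256, 0.226 and 0.104 against 0.939, 1.5 and 1.74.

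ACPC-NP replicate 3 carried more RNA of muscle and vessel walls than the other 5. Skeletal muscle genes summed to 108 to 954 CPM over ACPC-NP libraries and 164 to 314 over PCL libraries, and Acta1, the actin of skeletal muscle, stood at 40, 25.7 and 276 against 93.2, 65.2 and 46.5. The median of the 18 tested muscle genes was 0.77, with 0 apart, and -0.92 without that library. The smooth muscle and pericyte list went from 0.18 to -1.71 without it, endothelial from -0.033 to -0.95, fibrous matrix from -0.25 to -1.07, matrix proteases and inhibitors from 0.42 to -0.47, stroma and marrow fat from 0.26 to -0.62, and Schwann cell and myelin from -0.48 to -1.39. Fat tissue and skin had 2 tested genes of 7, both under 2 CPM (median 0.14; -0.27 without ACPC-NP replicate 3 to 0.55 without PCL replicate 2), with Lep, Krt5 and Krt14 at 0 to 2 counts. The part of this tissue mix in the other differences was not tested.

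Some members of these lists were apart in all 3 libraries. Lepr, the leptin receptor that marks the stromal cells around marrow vessels, stood at 4.19, 4.78 and 4.89 CPM around ACPC-NP and 2.53, 0.95 and 0.679 around PCL, 1.73 ± 0.41 (adjusted p = 0.0783 by edgeR). Pparg, the fat-cell factor, stood at 6.41, 9.39 and 9.11 against 5.27, 4.43 and 3.78, and Vcam1, an adhesion molecule of stroma and of macrophages, at 68.9, 103 and 82.9 against 56.7, 22.2 and 26.7. Cxcl12, the stromal ligand that keeps stem cells in marrow, overlapped (0.26 ± 0.51). Angpt2, which loosens vessels, was apart at 11.9, 13.3 and 16.3 CPM against 11.5, 7.2 and 6.58. Mmp3, a matrix protease, was apart at 15.7, 10.8 and 92.2 against 3.59, 10.2 and 10.1, its size set by replicate 3. S100b of Schwann cells was apart on the lower side at -1.74. In the fibrous matrix list, with 0 members apart, 12 of 17 were below 0 and 5 above. Col3a1 and Lox differed by -0.76 ± 0.84 and -0.86 ± 0.49. Fn1 lay the other way, at 0.32 to 1.01 with each library of week 6 left out.

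Genes of energy metabolism and the ribosome differed little. Of 22 oxidative phosphorylation genes 21 were above 0 and 9 apart, all higher (12.8% of all tested genes). An unadjusted p under 0.05 was found for 3, all higher (9.23%). The median was 0.15 (0.11 without PCL replicate 2 to 0.21 without PCL replicate 3); Ndufs1, a subunit of complex I, was 0.37 ± 0.13. Hypoxia and glycolysis had a median of 0.074 (-0.00023 without PCL replicate 2 to 0.18 without PCL replicate 1) with 1 gene apart each way, and ribosomal proteins 0.028 (-0.056 without PCL replicate 1 to 0.16 without PCL replicate 3) with 1 of 25 apart. Heat shock and chaperone genes had 12 of 15 below 0 (median -0.15; -0.19 without PCL replicate 3 to -0.088 without PCL replicate 1), with Hsp90ab1 at -0.31 ± 0.13. In the unfolded protein response (median -0.15; -0.21 without PCL replicate 2 to -0.015 without PCL replicate 1) Chac1, Ddit3, Atf4, Herpud1 and Dnajb9 were apart on the lower side, Chac1 at 13, 8.53 and 10.8 CPM against 23.6, 28 and 26, and Asns and Sdf2l1 on the higher. These were 5 of 17 lower (14.2% of all tested genes) and 2 higher (12.8%). By unadjusted p under 0.05 the list leaned the other way, with 4 higher (9.23% of all tested genes) and 2 lower (12.7%).

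Oxidative stress defence (median -0.089; -0.22 without PCL replicate 2 to -0.018 without ACPC-NP replicate 2) held genes with ranges apart in both directions. Of 17 tested, 3 were apart higher (12.8% of all tested genes) and 4 lower (14.2%). By unadjusted p under 0.05 there were 3, all higher (9.23%), and 0 lower. Gpx1, the main peroxidase of red cells and leukocytes, stood at 2415, 2365 and 2192 CPM around ACPC-NP and 1635, 1121 and 1533 around PCL, and Cat (catalase), at 441, 529 and 373 against 283, 219 and 315, and Gclm, of glutathione synthesis, at 159, 174 and 142 against 90.8, 67.5 and 106, were on the same side. Both Gpx1 and Cat are abundant in red cells. Akr1b8, Slc7a11, Nfe2l2 and Txnrd1 were apart below PCL at -1.55 to -0.28, none with an unadjusted p under 0.05. Hmox1 differed by -0.066 ± 0.60.

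The 4 genes with the smallest p beside those named were Mapk8 (-0.55 ± 0.10), the stress kinase JNK1; Hivep3 (-1.42 ± 0.27), a zinc finger protein that limits bone formation; March2 (0.85 ± 0.16), a ubiquitin ligase; and Fntb (0.95 ± 0.18), a farnesyltransferase subunit. All passed in the week 6 fit, at adjusted p-values by edgeR of 0.0253, 0.0299, 0.022 and 0.018. Tusc2, at 43.2, 48.6 and 44.9 CPM against 28.8, 27.6 and 29.8, and the protease receptor F2rl1, at 5.85, 4.78 and 5.83 against 2.74, 1.98 and 2.46, were further higher genes. Prkci, an atypical protein kinase C, and Slc46a3, a lysosomal transporter, were -0.53 ± 0.10 and 0.79 ± 0.16.

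Because no gene passed, those with the largest differences were named at an unadjusted p under 0.05, with ranges apart and a mean log2 CPM of at least 1; 762 higher and 949 lower genes met this, a rule set after values were seen. On the higher side, Steap4, a metalloreductase, stood at 47.4, 35.2 and 59.2 CPM against 18, 15 and 11.2, Cdkl1, a cyclin-dependent-like kinase, at 29.9, 27.1 and 14.3 against 5.31, 10.4 and 5.35, and B3gnt6, a glycosyltransferase, at 5.13, 6.82 and 3.64 against 2.2, 1.03 and 1.06. Sucnr1, the succinate receptor, differed by 1.55 ± 0.54. Slc9b2, Mmp10 and Qprt also met the rule, but their level in ACPC-NP replicate 3 was 8.8, 11.5 and 12.5 CPM and no more than 3.57 in the other 2.

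On the lower side, Rasal1, which switches Ras off, stood at 27.9, 24.8 and 30.3 CPM against 44.6, 129 and 125, and Mybpc2, a myosin-binding protein of fast muscle, at 22.8, 13.5 and 22.3 against 52.5, 112 and 106. Mybpc2 stood below every PCL library in ACPC-NP replicate 3 too, where Acta1 was highest. Hes5, a Notch target, stood at 9.66, 5.6 and 7.24 CPM against 13.8, 26.8 and 33.2, and Gli1, the effector and target of hedgehog signals, at 1.97, 0.948 and 1.46 against 3.76, 6.65 and 5.31. Lgals4, Slc25a18, Tfcp2l1, Apoa1 and Tenm3 were -2.52 to -1.84, all at under 11 CPM in every library. For Rasal1, Hes5 and Lgals4, PCL replicate 1 was again the PCL library nearest to ACPC-NP.

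At week 2, in other libraries, several list medians had the other sign. The change of the difference between the weeks called 0 genes of 11814 by edgeR (smallest adjusted p 0.278; 1768 at an unadjusted p under 0.05, by direction 661 higher at week 6, 5.60%, and 1107 lower, 9.37%), against 138 by DESeq2 and 1953 by voom. Without PCL week 6 replicate 1 edgeR called 62, and without ACPC-NP week 2 replicate 1 it called 148. The erythroid median was -0.24 at week 2 and 0.74 at week 6. Of 17 members 13 had an unadjusted interaction p under 0.05 on the higher side (5.60% of all tested genes) and 1 on the lower (9.37%). For haem synthesis 8 of 8 were on the higher side, but that list was chosen after values were seen. The interaction includes the same week 6 difference, so this count is not separate from that choice. The haem synthesis median at week 2 was -0.18, and 0.080 without ACPC-NP week 2 replicate 3. Hbb at week 2 stood at 26517, 27543 and 23814 CPM around ACPC-NP and 42183, 18032 and 32590.0 around PCL, where the ranges overlapped.

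NF-kB targets had a median of 1.28 at week 2 and -0.81 at week 6. Of 13, 12 had an unadjusted interaction p under 0.05, all lower at week 6 (9.37% of all tested genes). The week 2 value rests on 1 library: without ACPC-NP week 2 replicate 3 it was 0.098. The interaction counts given for the lists include that library. Over all tested genes, 1768 of 11814 had an unadjusted interaction p under 0.05 with it and 993 of 11943 without it. Nfkb1 at week 2 was 343, 387 and 713 CPM around ACPC-NP and 323, 484 and 378 around PCL. Chemokines went from 2.28 at week 2 (1.23 without that library) to -0.71. Of 19, 13 had an unadjusted interaction p under 0.05, all lower at week 6 (9.37% of all tested genes). Immediate early genes went from 0.98 (0.024 without it) to -0.48, and hypoxia and glycolysis from 1.57 (0.41) to 0.074. The erythroid median at week 2 without it was 0.034. Chromatin regulators and the B lineage were below 0 at both weeks: -0.21 and -0.40 at week 2.

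**Figure D5:**
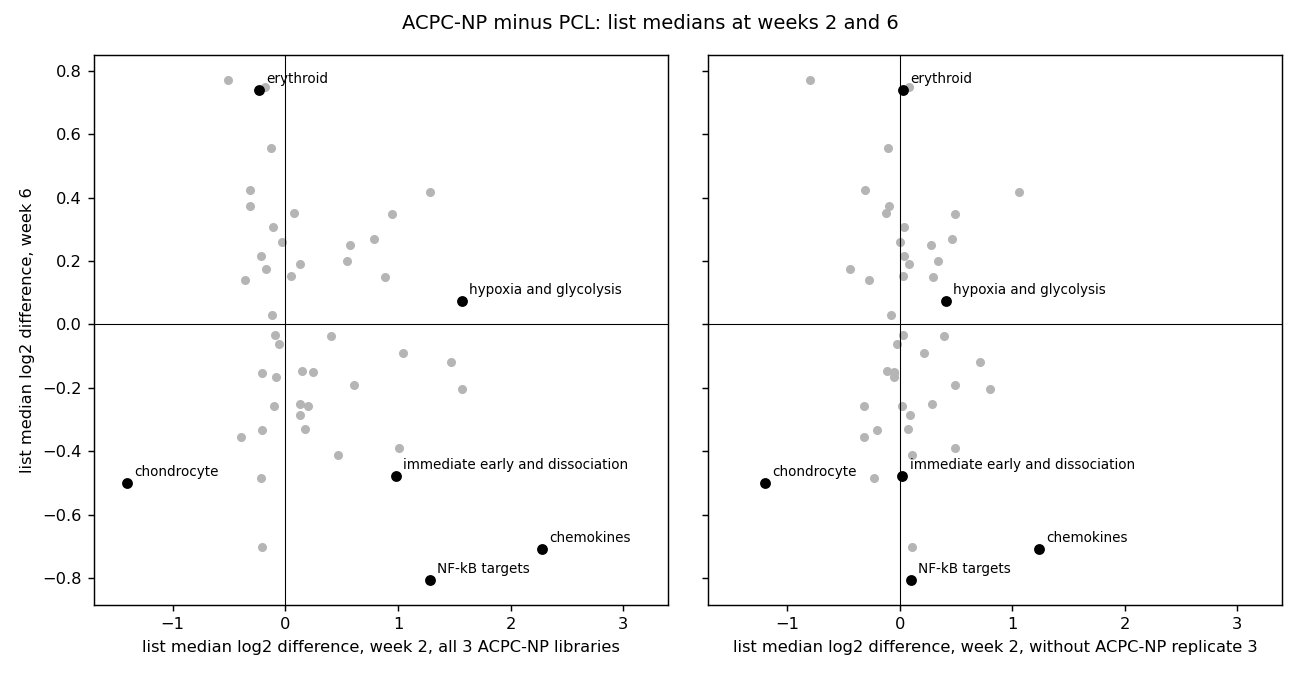
Median log2 difference ACPC-NP minus PCL of each list at week 6 (y) against week 2 (x), with all week 2 libraries (left) and without ACPC-NP week 2 replicate 3 (right); 6 lists are labelled. NF-kB targets lie at 1.28 at week 2 on the left and at 0.098 on the right, and the erythroid list at -0.24 and 0.034.

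Beside the CaP scaffold at week 6, whose libraries the comparisons share, the lower lists did not share 1 position. The NF-kB median was -0.21 for CaP minus PCL and -0.47 for ACPC-NP minus CaP, and the chemokine medians were -0.66 and -0.21. Chromatin regulators were -0.10 and -0.16. Over these 3 lists CaP lay between the other groups by the median. Osteoblast and mineralisation genes had 0.19 and -0.62, chondrocyte genes 0.60 and -1.25, and immediate early genes 0.0013 and -0.40. Wnt10b in the CaP libraries was 12.5, 7.71 and 8.64 CPM, above all ACPC-NP libraries, and Wnt5a 4.94, 3.48 and 12.1, above all PCL libraries. Lepr in the CaP libraries was 1.32, 0.871 and 1.61 CPM, below all 3 of ACPC-NP.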

How the data were processed

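Poly(A) RNA of 18 libraries, 6 groups of 3, was sequenced, and the 6 libraries of the ACPC-NP and PCL scaffolds at week 6 were compared. The authors deposited whole-number read counts per gene and the same counts divided by size factors, a normalised signal that was used here only to check the counts. The submitters' processing notes name bcl2fastq 2.20.0, STAR 2.7.9a, Subread 2.0.1 with featureCounts, and the rat build Rnor_6.0; the annotation and the strand setting of the counting were not stated, so overlapping and antisense genes are uncertain.

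Counts were tested with edgeR 4.0.16 (quasi-likelihood, robust, TMM, R 4.3.3) over all 18 libraries with 1 term per group. filterByExpr (minimum count 10, minimum total 15) left 11814 of 17337 genes, and p-values were adjusted over all of them by Benjamini-Hochberg at a threshold of 0.05. The spread had 12 residual degrees of freedom, and the biological coefficient of variation was 26%. Alternatives were DESeq2 1.42.0, voom with quality weights (limma 3.58.1), DESeq2 size factors, no filter, the groups compared only, the week 6 libraries only, a replicate block, and each library left out. The edgeR, DESeq2 and voom scripts were tested on simulated data with no library standing apart, which does not calibrate the numbers of genes called here. Log2 CPM used a prior count of 2.

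The comparison and the gene lists were chosen with earlier results of these data known; the haem synthesis and clock lists were added after values were seen. Of 815 list entries 50 had no match. The naming rule asked for an adjusted p under 0.05, ranges apart and a mean log2 CPM of at least 1 (15 largest differences and 5 smallest p a direction); as 0 genes passed, the unadjusted p was used, a change made after values were seen. From each list the first 2 tested members and the one with the smallest p were named. Promoter windows and gene names came from RefSeq (GRCr8), by symbol. The results of some list members are not reported here.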

Additional observations from a re-analysis of the deposited data

Results flagged for a closer look

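In 6 of 167 named genes all ACPC-NP libraries lay on one side of all PCL libraries at week 6 and on the opposite side at week 2. Some of the 167 were named because their ranges were apart at week 6. The share of all tested genes with this pattern was not counted, so the 6 cannot be set against it. The change of the log2 difference from week 2 to week 6 was 2.53 for B3gnt6 (-0.67 at week 2, 1.86 at week 6) and 1.37 for Angpt2 (-0.66 and 0.71). It was -6.17 for the chemokine Ccl3 (5.42 at week 2, 2.40 without ACPC-NP week 2 replicate 3, and -0.75 at week 6). It was -3.80 for the granule protease Gzma (2.36 and -1.45), -2.40 for Foxp3 (1.91 and -0.49) and -3.20 for Il2ra (2.26 and -0.93), the last 2 of regulatory T cells. The adjusted p of each change was 0.278 by edgeR, so none passed the test.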

How the results depend on the processing

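Of the test choices, DESeq2 called 880 genes, voom with quality weights 4056, and edgeR on the week 6 libraries alone 487, where edgeR on all 18 libraries called 0; with each library left out the count ran from 0 to 1787, the highest without PCL week 6 replicate 1. DESeq2 size factors, no filter and the groups compared alone called 0. For the change between weeks, DESeq2 called 138 and voom 1953, and with each library left out the count ran from 0 to 148. Same-numbered ACPC-NP and PCL libraries did not deviate together (correlations 0.0431, -0.171 and -0.262), so the numbers were not taken as pairs; a fit with a replicate block called 427 genes, 111 higher and 316 lower, and 0 for the change between weeks. The cause of these differences was not tested.

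Of 167 named genes, some changed the sign of a difference that had not passed the test. With voom these were, with their log2 difference there, Mmp13 -0.42, Cxcl12 -0.034, Cdh5 -0.58, Mrc1 0.085, Cd4 0.15, Gzmb -0.46, Cd34 0.12, Slc20a2 -0.16, Hmox1 0.23, Nqo1 0.16, Acta1 -0.16, Ckm -0.044, Acta2 -1.05, Tagln -0.9961, Des -0.16, Adipoq 0.27, Krt10 -0.0082. With the replicate block they were Cdh5 -0.32, Nos2 -0.021, Gzmb -0.046, Acta2 -0.39, Tagln -0.38, Adipoq 0.019. With each library of week 6 left out the log2 difference of the following ran across 0: Acan -0.55 to 1.31, Acp5 -0.39 to 0.035, Acta1 -1.06 to 1.21, Acta2 -2.04 to 0.72, Adipoq -0.68 to 0.63, Arg1 -0.01032 to 1.37, Cd34 -0.65 to 0.35, Cd3e -0.016 to 0.47, Cd4 -0.19 to 0.21, Cdh5 -1.52 to 0.61, Ckm -0.99 to 1.30, Col3a1 -2.14 to 0.34. The same held for Ctsd -0.02961 to 0.44, Ctsk -0.34 to 0.62, Cxcl12 -0.75 to 0.61, Des -1.02 to 1.41, Egfr -0.22 to 0.49, Fos -1.005 to 0.064, Gzmb -0.45 to 0.56, Hmox1 -0.21 to 0.18, Isg15 -0.19 to 0.65, Mmp13 -0.46 to 0.66, Mmp14 -0.38 to 0.93, Mrc1 -0.29 to 0.18. It held also for Mx1 -0.55 to 0.40, Ndufa4 -0.23 to 0.011, Nos2 -0.30 to 0.52, Nqo1 -0.22 to 0.21, Pf4 -0.016 to 0.42, Prf1 -0.37 to 0.026, Slc20a2 -0.22 to 0.35, Slc2a1 -0.45 to 0.019, Sox10 -2.53 to 0.12, Sox9 -0.78 to 1.32, Tagln -1.71 to 0.61. The cause was not tested. Depth was at least 18880604 counts in each library, and genes near 1 CPM rest on few reads.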
